A study of Homo sapiens with 12 samples.

Results

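Complex I, the NADH:ubiquinone oxidoreductase of the inner mitochondrial membrane, was followed here through its nuclear genes in K562 cells treated with DMSO or FT671. Members were the protein-coding genes of GENCODE release 44 whose symbol starts with NDUF, found by gene identifier among the 60609 genes of the count files. There were 48 of them, 40 with a subunit symbol (NDUFA, NDUFB, NDUFC, NDUFS or NDUFV) and 8 assembly factors (NDUFAF). K562 is a human erythroleukaemia cell line, and the compound FT671 blocks USP7, an enzyme that removes ubiquitin from proteins. The control cells received the vehicle DMSO and the treated cells 10 μM FT671, in both cases for 48 h, with 3 RNA-seq libraries in each group that the study describes as independent experiments. Both groups are cultures of 1 cell line, and total RNA depleted of ribosomal RNA was sequenced from bulk cells, so a shift in the mix of cell states and a change in RNA per cell cannot be told apart. Another 6 samples of the series, chromatin immunoprecipitations of histone marks, were not analysed here.

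Complex I takes electrons from NADH, passes them along a flavin and a chain of iron-sulfur clusters to ubiquinone, and pumps protons across the membrane as it does so. Its L-shaped structure has a matrix arm, which carries the flavin and the clusters, and a membrane arm, which holds the proton channels. The catalytic core of the matrix arm is encoded in the nucleus and that of the membrane arm in mitochondrial DNA, and the accessory subunits around both are nuclear. Assembly factors build the complex from modules and are absent from the finished enzyme. Of the genes with a subunit symbol, 37 encode subunits of the complex. NDUFA4 is nowadays assigned to complex IV, NDUFA4L2 is its hypoxia-induced relative, and NDUFC2-KCTD14 is a readthrough model of neighbouring genes.

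The libraries held between 4555220 and 14250500 counts, so that 3 counts corresponded to between 0.208 and 0.666 CPM (counts scaled to library totals of 1000000). DMSO replicate 3 stood apart from the other DMSO libraries, by a chi-square statistic, divided by its degrees of freedom, of 7.55 and 8.73, where DMSO replicates 1 and 2 gave 2.94 and the FT671 pairs 2.07 to 3.20. The K562 markers GATA1, KLF1, TFRC, HBG1, HBG2 and HBZ were all detected. Of 8 erythroid markers 7 were tested, among which HBG1, HBG2 and HBZ rose and GATA1, KLF1 and TFRC fell. Of 8 markers of other blood cells, CD3E, MS4A1, CD14, MPO, NCAM1 and S100A8 were at or near 0. LYZ rose, at 52.7 ± 1.65 CPM in DMSO and 73.8 ± 1.82 CPM in FT671 libraries (SD, n = 3 each). The erythroid markers summed to 1110.1 to 1151 CPM in DMSO and 1048 to 1081 CPM in FT671 libraries, with HBE1 near 0, and the other list to 55.1 to 56.7 and 76.0 to 78.5 CPM. What these marker shifts contribute to the values below was not tested.

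Nuclear subunit genes were mostly upregulated upon FT671. Of the 40 genes with a subunit symbol, 38 passed the filter on low counts, 24 were higher and 1, NDUFA4L2, was lower at an adjusted p of 0.05 (edgeR quasi-likelihood test, Benjamini-Hochberg adjusted over 13895 genes). Over all genes tested, 23.6% were higher and 26.5% lower at that threshold. Across the 38 subunit genes, log2 fold changes had a median of 0.37, a 1.29-fold rise, and ranged from -0.80 to 0.81, whereas the median over all genes tested was -0.01. Every FT671 library lay above every DMSO library for 27 of them, against 26.8% of all genes tested, and below for 1, against 30.3%. At the stricter adjusted p of 1e-05, 2 members were higher by edgeR, NDUFS5 and NDUFA4, and 0 lower, compared with 1.79% and 4.13% of all genes. DESeq2 likewise called 0 lower at 1e-05, and at an unadjusted p of 0.05 edgeR gave 2 lower, NDUFA4L2 and NDUFAF1. Among the 37 subunits of the complex 36 were tested, 23 of which were higher and 0 lower by edgeR, with 0 lower also by DESeq2 and at an unadjusted p of 0.05.

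**Figure D1:**
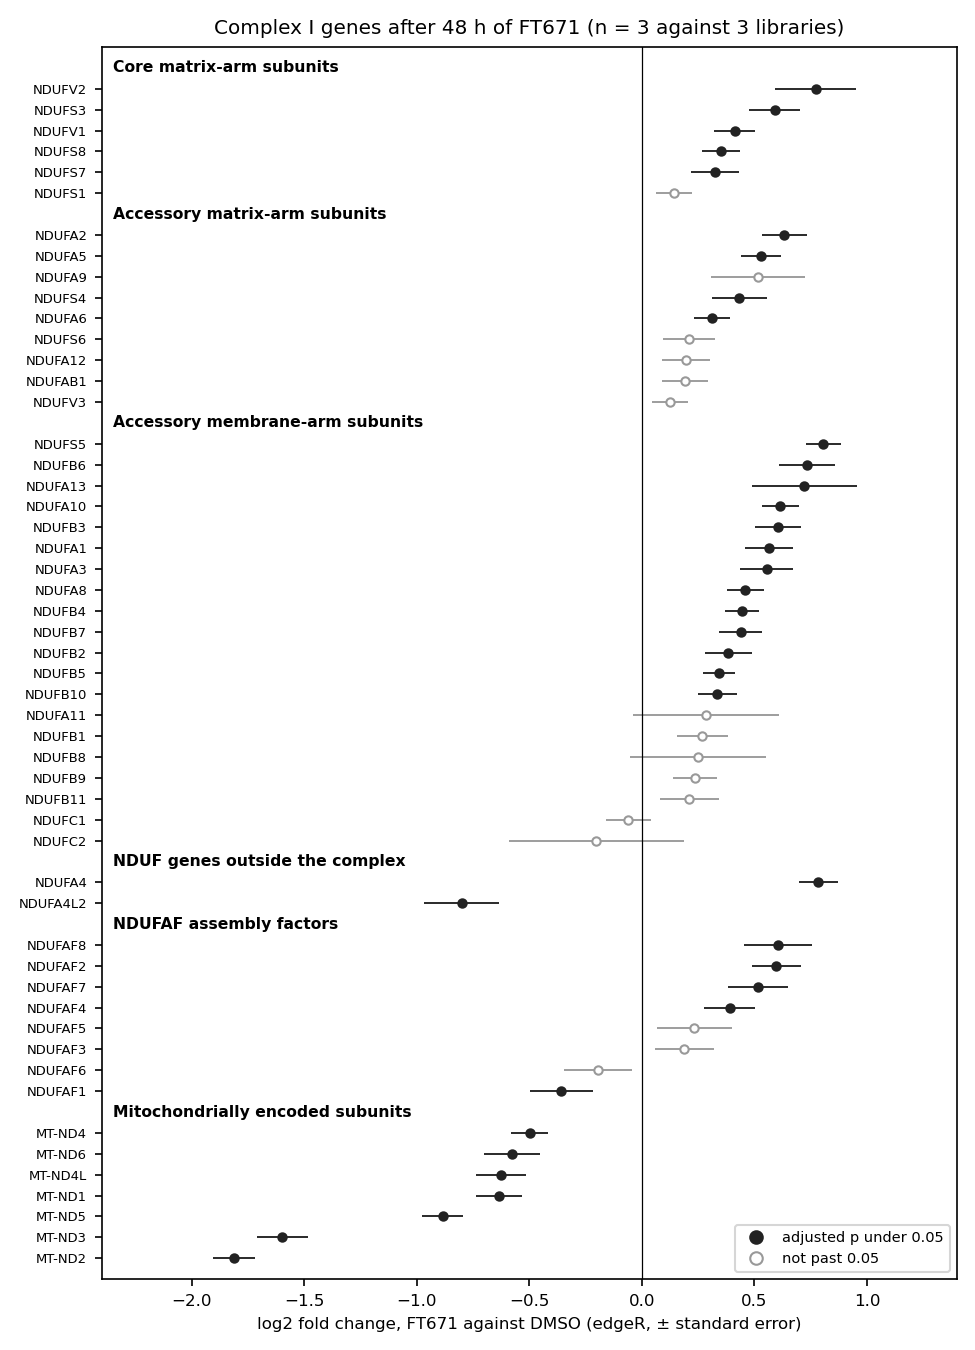
Log2 fold change of FT671 against DMSO (x axis, ± standard error) for the tested complex I genes described here, grouped by role, with filled points past an adjusted p of 0.05. Points of the nuclear subunits lie mostly right of 0, the assembly factors run from -0.36 to 0.60, and the 7 mitochondrially encoded subunits lie between -1.81 and -0.50.

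Promoter sequence of the members is shown next, and whether it bears on their changes was not tested. RefSeq windows from 250 bases before to 50 after a gene's start, on GRCh38.p14, were found for 40 of the 48 members, 33 with a subunit symbol and 7 assembly factors, some with several starts. They were searched on both strands for 3 short motifs. These were CGCANGCG, the core recognised by NRF1, a regulator of respiratory genes, CCGGAAG, a core of ETS factors such as GABPA, and AAGATGGCG, a core of YY1. No motif contains another, and at least 1 was present in 23 members, 2 or more in 4 and none in 17. The NRF1-type core occurred in 13 of 40 members (32.5%), in 12.01% of all genes with a window and in 22.8% of those tested. The ETS-type core occurred in 7 members (17.5%), against 12.2% of all and 23.5% of tested genes. The YY1-type core occurred in 7 members (17.5%), against 2.14% of all and 4.93% of tested genes. The 3 stretches of 250 bases before the start printed below were taken from the 6 members whose stretch overlaps no GENCODE exon, as examples of an NRF1-type match, an ETS-type match and no match, with the match in capitals.
NDUFAB1: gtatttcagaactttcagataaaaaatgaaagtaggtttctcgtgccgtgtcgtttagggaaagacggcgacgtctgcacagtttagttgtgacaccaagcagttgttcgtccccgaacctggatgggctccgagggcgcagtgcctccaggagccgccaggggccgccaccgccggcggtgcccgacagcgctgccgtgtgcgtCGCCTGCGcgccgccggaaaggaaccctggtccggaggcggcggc
NDUFAF4: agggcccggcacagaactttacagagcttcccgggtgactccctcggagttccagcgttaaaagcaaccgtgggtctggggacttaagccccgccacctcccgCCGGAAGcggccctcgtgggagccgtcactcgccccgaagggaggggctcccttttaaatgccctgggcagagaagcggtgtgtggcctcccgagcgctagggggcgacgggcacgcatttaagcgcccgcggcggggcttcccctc
NDUFB3: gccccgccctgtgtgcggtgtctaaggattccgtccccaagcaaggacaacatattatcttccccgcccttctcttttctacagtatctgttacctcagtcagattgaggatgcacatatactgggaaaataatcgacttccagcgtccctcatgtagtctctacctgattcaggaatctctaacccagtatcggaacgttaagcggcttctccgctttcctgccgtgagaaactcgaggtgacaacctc
The first lies on chr16:23596317-23596566 (minus strand), the next on chr6:96897892-96898141 (minus strand) and the last on chr2:201071751-201072000 (plus strand). The NDUFB3 stretch precedes a RefSeq start but lies inside the GENCODE gene, which begins at 201071433. NDUFAF4 and NDUFB3 rose, with log2 fold changes of 0.39 and 0.60, and NDUFAB1 did not pass the test at 0.19. Members with at least 1 motif had a median log2 fold change of 0.41 over 22 tested genes, of which 13 were higher. Those with none had 0.40 over 16, of which 11 were higher, and over all genes tested 23.6% were higher. By motif, the medians were 0.31 for the NRF1 type, of which 6 of 13 were higher, 0.56 for the ETS type, of which 6 of 7 were higher, and 0.38 for the YY1 type, of which 4 of 6 tested were higher.

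All 7 YY1-type matches of the members read in the direction of the gene and began between 10 and 26 bases after the start. Among all 583 genes with such a match, 326 (55.9%) had it in that direction anywhere after the start. The letters include an ATG. They are printed below with 10 bases on either side and the match in capitals, since the surrounding letters differ between members.
NDUFA6: atgctttggcAAGATGGCGgggagcggcg
NDUFA7: tcgcggacggAAGATGGCGtccgccaccc
NDUFA9: attgtgggaaAAGATGGCGgctgccgcac
NDUFAF8: ggacggacctAAGATGGCGgcctccaggg
NDUFB8: gaagaaggtgAAGATGGCGgtggccaggg
NDUFS4: tgcctgcagcAAGATGGCGgcggtgtcaa
NDUFS7: ggccgaggccAAGATGGCGgtgctgtcag
In the order printed they lie on chr22:42090729-42090757 (minus strand), chr19:8321343-8321371 (minus strand), chr12:4649114-4649142 (plus strand), chr17:81239317-81239345 (plus strand), chr10:100529836-100529864 (minus strand), chr5:53560650-53560678 (plus strand), chr19:1383914-1383942 (plus strand). Of these genes NDUFA6, NDUFAF8, NDUFS4 and NDUFS7 rose upon FT671, NDUFA9 and NDUFB8 did not pass the test, and NDUFA7 was not tested.

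Among the nuclear core subunits, which carry the flavin and the iron-sulfur clusters, NDUFV1, NDUFV2, NDUFS3, NDUFS7 and NDUFS8 rose and NDUFS1 did not pass the test. The median log2 fold change of this core was 0.35. NDUFV1 (ENSG00000167792, chromosome 11 from 67605653 to 67612554) binds NADH and the flavin. Its level was 253, 250.1 and 195 CPM in DMSO replicates 1 to 3 and 326, 308 and 300.5 CPM in FT671 replicates 1 to 3. NDUFV1 rose in all 3 FT671 libraries beyond the DMSO range, with a log2 fold change of 0.41 ± 0.09 (SE, edgeR adjusted p = 0.00202). NDUFV2 (ENSG00000178127, chromosome 18 from 9102630 to 9134345), its iron-sulfur partner, was counted at 4.92, 5.13 and 4.25 CPM in DMSO replicates 1 to 3 and 7.33, 7.76 and 9.21 CPM in FT671 replicates 1 to 3. The groups did not overlap and NDUFV2 rose, with a log2 fold change of 0.77 ± 0.18 (SE, edgeR adjusted p = 0.00283), and 90.0% of its canonical exon bases are shared with another gene model on its strand. NDUFS1 (ENSG00000023228, chromosome 2 from 206114817 to 206159509), the largest subunit of the electron input module, had 127, 119 and 139.6 CPM in DMSO replicates 1 to 3 and 144, 132 and 148 CPM in FT671 replicates 1 to 3. The groups overlapped, since DMSO replicate 3 was above FT671 replicate 2, and NDUFS1 had a log2 fold change of 0.14 ± 0.08 (SE, edgeR adjusted p = 0.163). Without DMSO replicate 3 the NDUFS1 value was 0.19 (edgeR adjusted p = 0.0169) and with an exon length correction 0.30 (adjusted p = 0.00217), both past the threshold.

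NDUFS7 (ENSG00000115286, chromosome 19 from 1383527 to 1395589) lines the site where ubiquinone is reduced. The libraries gave 191, 186 and 137 CPM in DMSO replicates 1 to 3 and 227, 217 and 204 CPM in FT671 replicates 1 to 3, DMSO replicate 3 being the lowest. NDUFS7 rose, with a log2 fold change of 0.32 ± 0.11 (SE, edgeR adjusted p = 0.0207), and 51.3% of its exons are overlapped by genes on the other strand. Without FT671 replicate 1 or 2 the NDUFS7 log2 fold change was 0.29 or 0.32, with edgeR adjusted p of 0.0745 and 0.0612. NDUFS3 (ENSG00000213619, chromosome 11 from 47565336 to 47584562) links the ubiquinone module to the rest of the matrix arm. It was measured at 101, 95.2 and 70.4 CPM in DMSO replicates 1 to 3 and 145, 137 and 126 CPM in FT671 replicates 1 to 3. NDUFS3 showed no overlap between groups and rose, with a log2 fold change of 0.59 ± 0.11 (SE, edgeR adjusted p = 6.43e-04). NDUFS8 (ENSG00000110717, chromosome 11 from 68030617 to 68036644) carries a pair of iron-sulfur clusters of the chain. Values were 249.6, 283 and 222 CPM in DMSO replicates 1 to 3 and 315, 321 and 329.5 CPM in FT671 replicates 1 to 3. NDUFS8 was separated likewise and rose, with a log2 fold change of 0.35 ± 0.08 (SE, edgeR adjusted p = 0.00326).

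Of the 10 accessory subunits of the matrix arm 9 were tested and 4 rose, beside 23.6% of all genes tested. The median log2 fold change over the 9 was 0.31. The risers were NDUFA2, NDUFA5, NDUFA6 and NDUFS4, with log2 fold changes of 0.63, 0.53, 0.31 and 0.43. NDUFA9, NDUFA12, NDUFAB1, NDUFS6 and NDUFV3 had log2 fold changes of 0.52, 0.19, 0.19, 0.21 and 0.12 that did not pass it. Leaving out 1 library moved NDUFS4 out of the calls (without FT671 replicate 2, edgeR adjusted p = 0.051) and NDUFS6, NDUFA12 and NDUFA9 into them (without DMSO replicate 2, DMSO replicate 2 and FT671 replicate 3 in turn, adjusted p = 0.0443, 0.00805 and 0.0259). NDUFAB1 is also the acyl carrier protein of mitochondrial fatty acid synthesis. NDUFA7, with at most 0.666 CPM in a library, did not pass the filter.

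Of the 20 accessory subunits of the membrane arm, 13 rose by edgeR, beside 23.6% of all genes tested. By edgeR 0 fell, beside 26.5%, and 0 fell also at an unadjusted p of 0.05 and by DESeq2. The median log2 fold change of the 20 was 0.41. NDUFS5 (ENSG00000168653, chromosome 1 from 39026318 to 39034636), a small subunit on the intermembrane side, had 196, 204 and 180.0 CPM in DMSO replicates 1 to 3 and 311, 343 and 360.4 CPM in FT671 replicates 1 to 3. NDUFS5 showed the largest rise among the 46 tested members, a log2 fold change of 0.81 ± 0.08 (SE, edgeR adjusted p = 1.97e-06), a 1.75-fold difference. NDUFB6 (ENSG00000165264, chromosome 9 from 32553001 to 32573184), a membrane-arm subunit, was at 29.5, 25.3 and 22.00 CPM in DMSO replicates 1 to 3 and 42.2, 49.1 and 39.2 CPM in FT671 replicates 1 to 3. NDUFB6 rose, with a log2 fold change of 0.73 ± 0.13 (SE, edgeR adjusted p = 2.75e-04), with no overlap between groups. NDUFA13 (ENSG00000186010, chromosome 19 from 19515736 to 19529054), also known as GRIM-19, was at 2.42, 2.38 and 3.33 CPM in DMSO replicates 1 to 3 and 4.22, 4.51 and 4.201 CPM in FT671 replicates 1 to 3. NDUFA13 rose, with a log2 fold change of 0.72 ± 0.23 (SE, edgeR adjusted p = 0.0192), from a low level. The NDUFA13 call was lost in 8 alternatives, among them without DMSO replicate 1 or 2 or FT671 replicate 2 or 3, with log2 fold changes of 0.64, 0.65, 0.69 and 0.75 and edgeR adjusted p of 0.0883, 0.075, 0.0588 and 0.0562. NDUFA1, NDUFA3, NDUFA8, NDUFA10, NDUFB2, NDUFB3, NDUFB4, NDUFB5, NDUFB7 and NDUFB10 also rose, with log2 fold changes from 0.34 to 0.62. Among these NDUFA10, which resembles a nucleoside kinase, was at 73.6, 84.00 and 84.7 CPM in DMSO replicates 1 to 3 and 116, 129 and 124 CPM in FT671 replicates 1 to 3. NDUFB1, NDUFB8, NDUFB9, NDUFB11 and NDUFA11 had positive log2 fold changes of 0.27, 0.25, 0.24, 0.21 and 0.28 that did not pass the test. Some of these passed in alternatives, for example NDUFB9 without DMSO replicate 2 (edgeR adjusted p = 0.0159) and NDUFB9, NDUFB1 and NDUFB11 with a GC content correction (adjusted p = 0.01802, 0.0178 and 0.03002). Negative values were found for NDUFC1 and NDUFC2, the subunits named C.

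NDUFC1 (ENSG00000109390, chromosome 4 from 139266880 to 139302551) had 58.2, 62.3 and 53.98 CPM in DMSO replicates 1 to 3 and 49.1, 57.2 and 60.3 CPM in FT671 replicates 1 to 3, and the groups overlapped. NDUFC1 had a log2 fold change of -0.06 ± 0.10 (SE, edgeR adjusted p = 0.636), and its sign turned under a GC content correction and without FT671 replicate 1. NDUFC2 (ENSG00000151366, chromosome 11 from 78068297 to 78079862) was barely counted, with 1.38, 1.099 and 1.66 CPM in DMSO replicates 1 to 3 and 0.444, 1.26 and 1.43 CPM in FT671 replicates 1 to 3. NDUFC2 had a log2 fold change of -0.20 ± 0.39 (SE, edgeR adjusted p = 0.689), a value that turned positive without FT671 replicate 1. The readthrough model NDUFC2-KCTD14 (ENSG00000259112, chromosome 11 from 78016971 to 78079865) was listed at 0 counts in each of the 6 libraries.

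The pair outside the complex went opposite ways. NDUFA4 (ENSG00000189043, chromosome 7 from 10931943 to 10940153), counted as a subunit of complex IV, was at 116, 138 and 123 CPM in DMSO replicates 1 to 3 and 198, 233 and 217 CPM in FT671 replicates 1 to 3. NDUFA4 rose, with a log2 fold change of 0.78 ± 0.09 (SE, edgeR adjusted p = 6.05e-06), the largest rise after that of NDUFS5. NDUFA4L2 (ENSG00000185633, chromosome 12 from 57234903 to 57240715), a target of HIF1, was at 13.4, 12.5 and 10.4 CPM in DMSO replicates 1 to 3 and 5.996, 6.68 and 7.86 CPM in FT671 replicates 1 to 3. NDUFA4L2 fell by 0.80 ± 0.17 (SE) on the log2 scale, with an edgeR adjusted p of 0.00121, and every FT671 library lay below every DMSO library. Other hypoxia-induced genes were mixed: of 10, 8 were tested, 4 rose and 2 fell, beside 23.6% and 26.5% of all genes tested. LDHA was the highest at a log2 fold change of 0.70 and SLC2A1 the lowest at -0.72.

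**Figure D2:**
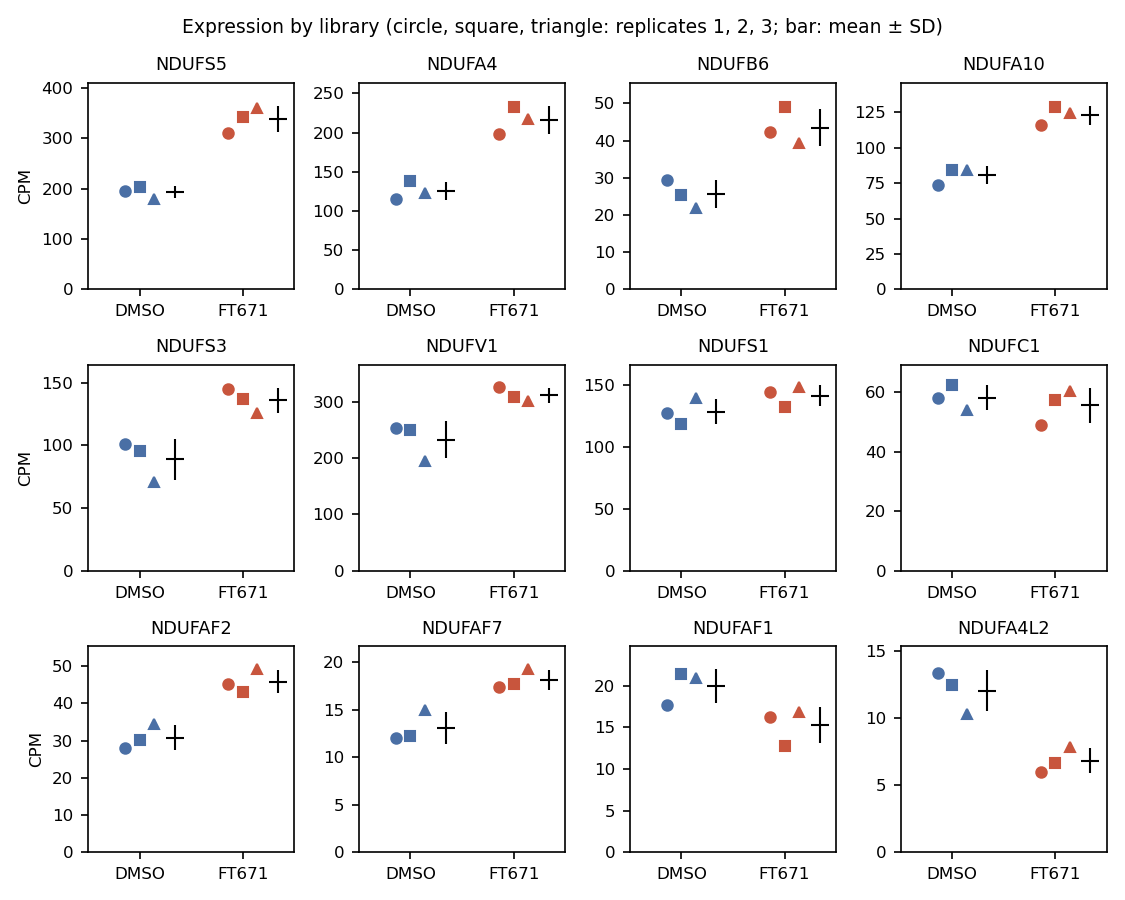
CPM by library for 12 members (circle, square and triangle for replicates 1, 2 and 3, bars for mean ± SD, y axes from 0). NDUFS5 rises from 193 to 338 CPM in the mean while NDUFA4L2 falls from 12.1 to 6.85, and the groups of NDUFS1 and NDUFC1 overlap.

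The 8 NDUFAF assembly factors were all tested. Of these 4 rose, NDUFAF1 fell and 3 did not pass the test, beside 23.6% higher and 26.5% lower over all genes tested. The median log2 fold change of the 8 was 0.31. Their summed level went from 155, 163 and 163 CPM to 195, 185 and 203 CPM, that of the subunit genes from 3443, 3603 and 2976 CPM to 4492, 4432 and 4395 CPM. NDUFAF1 (ENSG00000137806, chromosome 15 from 41387218 to 41409403), a component of the assembly complex of the membrane arm together with ECSIT, ACAD9 and TMEM126B, was at 17.7, 21.4 and 20.9 CPM in DMSO replicates 1 to 3 and 16.2, 12.8 and 16.9 CPM in FT671 replicates 1 to 3. NDUFAF1 fell by 0.36 ± 0.14 (SE) on the log2 scale, with an edgeR adjusted p of 0.0456, with no overlap between groups, and this call was lost in 7 of the alternatives tried. Among these NDUFAF1 stood at log2 fold changes of -0.29 without DMSO replicate 2, -0.38 without FT671 replicate 1 and -0.25 without FT671 replicate 2, with edgeR adjusted p of 0.157, 0.0698 and 0.190. NDUFAF2 (ENSG00000164182, chromosome 5 from 60945177 to 61154531), a relative of the subunit NDUFA12 that acts late in assembly, was at 27.9, 30.05 and 34.4 CPM in DMSO replicates 1 to 3 and 45.1, 43.1 and 49.2 CPM in FT671 replicates 1 to 3. NDUFAF2 rose, with a log2 fold change of 0.60 ± 0.11 (SE, edgeR adjusted p = 4.21e-04). NDUFAF3 (ENSG00000178057, chromosome 3 from 49020459 to 49023495) and NDUFAF4 bind each other in early assembly of the ubiquinone module. NDUFAF3 had 43.7, 44.9 and 29.8 CPM in DMSO replicates 1 to 3 and 46.6, 43.3 and 47.2 CPM in FT671 replicates 1 to 3. The NDUFAF3 groups overlapped, with a log2 fold change of 0.19 ± 0.13 (SE, edgeR adjusted p = 0.253). NDUFAF4 (ENSG00000123545, chromosome 6 from 96889315 to 96897891) had 23.1, 24.2 and 28.5 CPM in DMSO replicates 1 to 3 and 31.1, 31.03 and 35.03 CPM in FT671 replicates 1 to 3. NDUFAF4 rose, with a log2 fold change of 0.39 ± 0.11 (SE, edgeR adjusted p = 0.0112), and lost its call without DMSO replicate 1 (log2 fold change 0.32, edgeR adjusted p = 0.0684) or FT671 replicate 3 (0.32, adjusted p = 0.0822).

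NDUFAF5 and NDUFAF7 modify arginines of core subunits. NDUFAF5 (ENSG00000101247, chromosome 20 from 13785007 to 13821580) was at 7.76, 9.43 and 11.3 CPM in DMSO replicates 1 to 3 and 11.8, 10.5 and 10.5 CPM in FT671 replicates 1 to 3. NDUFAF5 overlapped between groups and had a log2 fold change of 0.23 ± 0.17 (SE, edgeR adjusted p = 0.265). NDUFAF7 (ENSG00000003509, chromosome 2 from 37231631 to 37253403) was at 11.98, 12.2 and 14.97 CPM in DMSO replicates 1 to 3 and 17.3, 17.7 and 19.3 CPM in FT671 replicates 1 to 3. NDUFAF7 was higher in every FT671 library, with a log2 fold change of 0.51 ± 0.13 (SE, edgeR adjusted p = 0.00546). NDUFAF8 (ENSG00000224877, chromosome 17 from 81239305 to 81241310), a partner that stabilises NDUFAF5, was at 10.1, 9.98 and 9.06 CPM in DMSO replicates 1 to 3 and 15.1, 17.5 and 12.96 CPM in FT671 replicates 1 to 3. NDUFAF8 rose, with a log2 fold change of 0.60 ± 0.15 (SE, edgeR adjusted p = 0.00428). NDUFAF6 (ENSG00000156170, chromosome 8 from 94895533 to 95116455) was at 12.9, 10.99 and 13.9 CPM in DMSO replicates 1 to 3 and 11.3, 9.38 and 11.6 CPM in FT671 replicates 1 to 3, with overlap between groups. NDUFAF6 had a log2 fold change of -0.20 ± 0.15 (SE, edgeR adjusted p = 0.303).

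**Figure D3:**
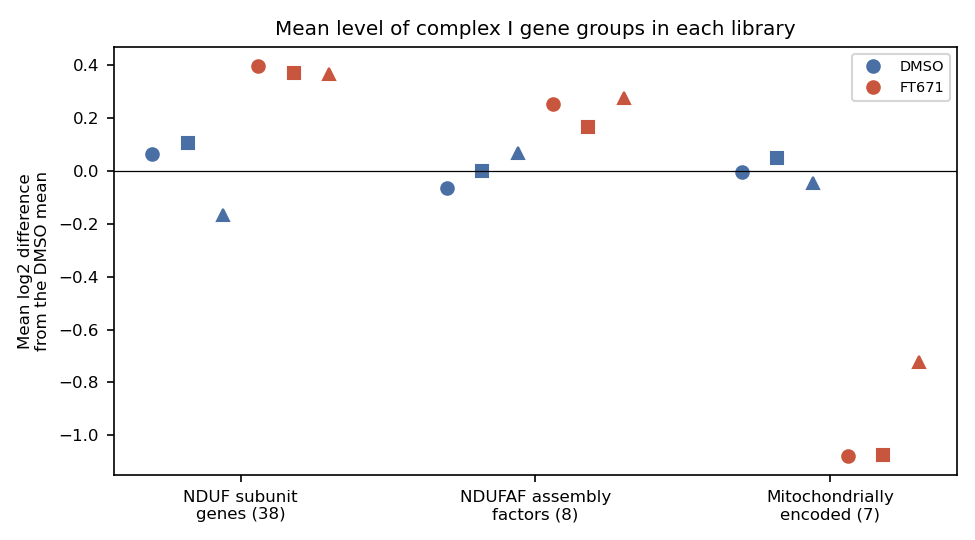
Mean log2 difference from the DMSO mean, after adding 0.5 CPM, over the tested genes of each group in each library (circle, square and triangle for replicates 1, 2 and 3). Subunit genes lie at 0.06, 0.10 and -0.17 in DMSO and at 0.39, 0.37 and 0.37 upon FT671, and the mitochondrially encoded genes lie below 0 in all 3 FT671 libraries.

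DMSO replicate 3 was the lowest DMSO library for 30 of the 38 tested subunit genes and the lowest of all 6 for 28. Over all 13895 genes tested it was the lowest DMSO library for 5707 and the lowest of all 6 for 3099. Without it 25 subunit genes were higher, at a median log2 fold change of 0.30. What sets this library apart was not tested. The subunit transcripts were also short, with a median canonical length of 717 bases, against 2799 over all genes tested. With fold changes corrected for exon length 29 subunit genes were higher at a median of 0.38, and with a GC content correction 32 at a median of 0.43.

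**Figure D4:**
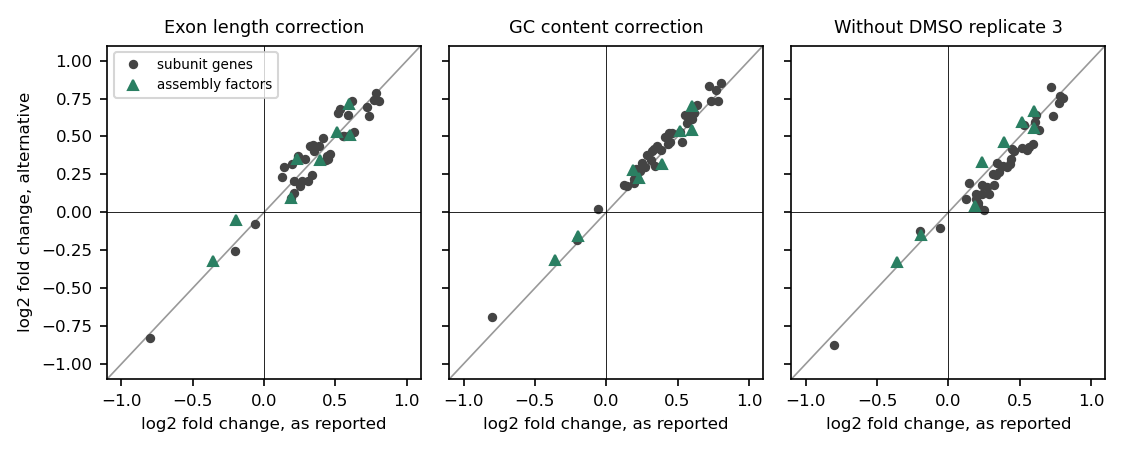
Log2 fold change of each tested NDUF gene as reported (x axis) against that with an exon length correction, with a GC content correction and without DMSO replicate 3 (y axes), the diagonal marking equal values. Circles are subunit genes and triangles assembly factors, and most points lie above 0 in all 3 panels.

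The 7 mitochondrially encoded subunits, the core of the membrane arm, all fell, 3 of them past 1e-05, and their groups did not overlap. Their median log2 fold change was -0.64, and they held together 11767, 11583 and 11477 CPM in the DMSO libraries and 6663, 7004 and 8379 CPM upon FT671. Over all genes tested, 26.5% were lower at 0.05 and 4.13% at 1e-05. Every FT671 library lay below every DMSO library for 30.3% of them. MT-ND2 (ENSG00000198763, mitochondrial chromosome M from 4470 to 5511) was at 763, 778 and 799 CPM in DMSO replicates 1 to 3 and 219, 191 and 254 CPM in FT671 replicates 1 to 3. MT-ND2 fell by 1.81 ± 0.09 (SE) on the log2 scale, with an edgeR adjusted p of 1.18e-08. MT-ND3 (ENSG00000198840, mitochondrial chromosome M from 10059 to 10404) was at 377, 456 and 319.8 CPM in DMSO replicates 1 to 3 and 124, 117 and 139 CPM in FT671 replicates 1 to 3. MT-ND3 fell by 1.60 ± 0.11 (SE) on the log2 scale, with an edgeR adjusted p of 1.42e-07. MT-ND5 (ENSG00000198786, mitochondrial chromosome M from 12337 to 14148) was at 1666, 1536 and 1692 CPM in DMSO replicates 1 to 3 and 782, 839 and 1024 CPM in FT671 replicates 1 to 3. MT-ND5 fell by 0.89 ± 0.09 (SE) on the log2 scale, with an edgeR adjusted p of 3.84e-06. MT-ND1 (ENSG00000198888, mitochondrial chromosome M from 3307 to 4262) was at 1382, 1496 and 1157 CPM in DMSO replicates 1 to 3 and 768, 838 and 990.2 CPM in FT671 replicates 1 to 3. MT-ND1 fell by 0.64 ± 0.10 (SE) on the log2 scale, with an edgeR adjusted p of 1.86e-04, and its product sits at the junction of the arms.

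MT-ND4 (ENSG00000198886, mitochondrial chromosome M from 10760 to 12137) was at 6939, 6646 and 6836 CPM in DMSO replicates 1 to 3 and 4392, 4639.9 and 5426 CPM in FT671 replicates 1 to 3. MT-ND4 fell by 0.50 ± 0.08 (SE) on the log2 scale, with an edgeR adjusted p of 1.95e-04 and had the highest level of the 7. MT-ND4L (ENSG00000212907, mitochondrial chromosome M from 10470 to 10766), which overlaps the start of MT-ND4, was at 300.3, 308 and 292 CPM in DMSO replicates 1 to 3 and 178, 164 and 237 CPM in FT671 replicates 1 to 3. MT-ND4L fell by 0.63 ± 0.11 (SE) on the log2 scale, with an edgeR adjusted p of 3.18e-04. MT-ND6 (ENSG00000198695, mitochondrial chromosome M from 14149 to 14673), the member on the other strand, was at 339.6, 364 and 380.4 CPM in DMSO replicates 1 to 3 and 201, 214 and 307 CPM in FT671 replicates 1 to 3. MT-ND6 fell by 0.58 ± 0.12 (SE) on the log2 scale, with an edgeR adjusted p of 0.00158. The nuclear copies MTND2P28 and MTND4P12 were counted as genes of their own, at 8843 and 3087 over the 6 libraries. Whether reads of MT-ND2 and MT-ND4 were assigned to these copies or left out was not tested. All mitochondrially encoded genes together took 2.59% to 2.82% of the counts in DMSO libraries and 1.47% to 1.76% upon FT671.

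Per kb of canonical transcript, the level in DMSO-treated cells ranged widely among members without a same-strand overlap. NDUFS5 was highest at 390 CPM per kb, followed by NDUFS8 at 341, NDUFB9 at 322 and NDUFA1 at 263, with SDs of 24.4, 41.7, 47.3 and 45.5, so that NDUFS8 and NDUFB9 lay within 1 SD of each other. NDUFS1, with an annotated canonical length of 11660 bases, reached 11.03 CPM per kb, and NDUFAF5, with 5449 bases, was lowest at 1.74. Which transcripts the cells used was not tested, and these values depend on the length chosen.

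Some subunit genes with low counts overlap other gene models. In 8 subunit genes at least 5% of the canonical exon bases are also exon of another listed gene on the same strand, and these genes had 0 to 384 counts per kb over the 6 libraries. The other 32 had 569 to 26988, with a median of 5486. Low counts were also found without such overlap, among the assembly factors, with 92.5 counts per kb for NDUFAF5, 342 for NDUFAF6 and 357 for NDUFAF7. The covered share was 100% in NDUFC2-KCTD14, 90.0% in NDUFV2, 83.9% in NDUFA13, 77.9% in NDUFA7, 72.0% in NDUFB8, 68.2% in NDUFA11, 19.7% in NDUFC2 and 11.7% in NDUFA9. STAR's gene counting, as background, leaves out reads that fall on more than 1 gene, and whether that lowered these counts was not tested. Among the 32 genes without such overlap 22 rose and 1 fell, at a median log2 fold change of 0.37. Of the 6 tested genes with it 2 rose, NDUFV2 and NDUFA13, and over all genes tested 23.6% rose and 26.5% fell. Exons of NDUFA2, NDUFB2, NDUFB9, NDUFA3, NDUFS1 and NDUFAF3 are overlapped on the other strand by 27.4%, 24.3%, 23.9%, 15.9%, 12.1% and 11.2%, and those of NDUFA4L2 by 3.5%. The strand setting of the counting is not given in the sources used here. Of genes on the other strand, TMCO6 and IK over NDUFA2, TATDN1 over NDUFB9, ENSG00000248015 over NDUFS7 and RPS28 over NDUFA7 rose. Their log2 fold changes were 0.89, 0.22, 0.33, 0.35 and 0.74. SHMT2 over NDUFA4L2 and HIF1AN over NDUFB8 fell, at -0.47 and -0.31. What these genes contribute to the counts of the members was not tested. Of 63 NDUF pseudogenes 39 had 0 counts and 22 had 1 to 9, with 145 counts in all beside 208191 on the NDUF genes. The most were on NDUFV2P1, with 64 counts beside 329 on NDUFV2. Whether reads of NDUF genes were left out or assigned to such copies was not tested.

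**Figure D5:**
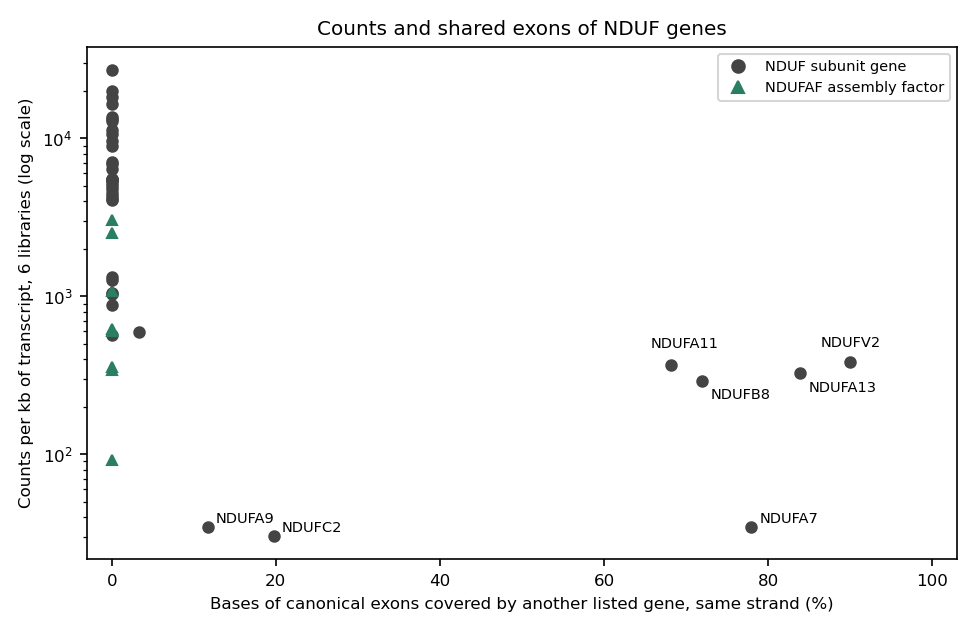
Counts per kb of canonical transcript over the 6 libraries (y axis, log scale) against the share of canonical exon bases covered by another gene on the same strand (x axis, percent), for subunit genes (circles) and assembly factors (triangles). The named genes, at 11.7% or more, lie at 384 counts per kb or below, and NDUFC2-KCTD14, at 0 counts, cannot be drawn on this axis.

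On 5 lists of genes outside the NDUF family, 4 of them of genes that serve complex I and the other the hypoxia-induced genes described above, genes moved in both directions. Of their 61 genes 57 were tested, 18 rose and 11 fell, with a median log2 fold change of 0.06, beside 23.6% higher, 26.5% lower and a median of -0.01 over all genes tested. Of 16 other assembly factors 6 rose and 3 fell at a median log2 fold change of 0.18, with COA1 the highest at 0.82 and TMEM186 the lowest at -1.17. Of 14 genes of iron-sulfur cluster assembly 13 were tested, 6 rose and 0 fell by edgeR (0 at an unadjusted p of 0.05 and by DESeq2) at a median of 0.24, with BOLA3 the highest at 0.68 and HSPA9 the least of the risers at 0.23. Of 11 genes of ubiquinone synthesis 2 rose and 2 fell at a median of -0.14, from COQ3 at 0.48 to COQ4 at -0.50. Of 10 regulators of respiratory genes 9 were tested, 0 rose by edgeR (1, TFAM, at an unadjusted p of 0.05 and 0 by DESeq2) and 4 fell at a median of -0.15. These were PPARGC1B, a co-activator, at -0.65, NRF1 at -0.63, TFB2M at -0.63 and ESRRA at -0.61. YY1 and GABPA did not pass the test, with -0.15 and -0.07.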

How the data were processed

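Members and gene lists were chosen with earlier results of these data known. Per the study's methods, the authors mapped paired-end reads with STAR (two-pass, hg38), which also collected the read counts per gene; the STAR version, annotation release and strand setting are not given in the sources used here. The deposited values are raw counts per gene in 6 libraries, grouped by their labels. Of 60609 identifiers 60295 matched GENCODE 44, and the 314 others held 0.0609% of counts. Counts were filtered by filterByExpr, scaled by TMM and tested two-sided with edgeR 4.0.16 (R 4.3.3), at adjusted p of 0.05 and 1e-05. The study's methods give 1e-05 with DESeq2, while its figure legend on changed genes names a Student's t test at another p. The standard error is the log2 fold change over the root of F. CPM used TMM-scaled totals. The floor of 3 counts covers counting error only. Named genes were the core subunits, the NDUFAF genes, NDUFA4, NDUFA4L2, NDUFC2-KCTD14, the 5 highest and 5 lowest members, the MT-ND genes and the extremes of each pathway list. Alternatives included DESeq2 1.42.0, other scalings and filters, length and GC corrections (loess span 0.3), thinning, the replicate block and leaving out each library; canonical length and leaving out overlapped genes were added after seeing the data. Protein sequences were not used here. Single values of some genes on these lists are not reported here.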

Additional observations from a re-analysis of the deposited data

How the results depend on the processing

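In 1107 comparisons of 53 genes, 1024 kept their direction and side of the threshold, 24 lost the call, 54 gained it and 5 turned sign. All 7 mitochondrially encoded subunits were lower in each alternative, and 23 NDUF genes kept their call in each. Subunit genes called higher ranged from 21 to 33. The count of NDUFAF genes called lower went from 1 to 0 with DESeq2 size factors, the DESeq2 Wald test, exon length correction and thinning to the smallest total, and was 0 to 1 when 1 library was left out (0 without DMSO replicate 2, FT671 replicate 1 or FT671 replicate 2). Their median log2 fold change was 0.41 with canonical length correction, 0.38 with the replicate block added, and 0.29 to 0.40 when 1 library was left out. Members higher at 1e-05 (2 as reported) numbered 7 with the DESeq2 Wald test, 10 with no filter, 4 with exon length correction (8 with the block), 9 with GC correction (13 with the block), 4 with canonical length correction (5 with the block), and 0 to 10 when 1 library was left out: 10 without DMSO replicate 3, and 0 without DMSO replicate 1, FT671 replicate 2 or FT671 replicate 3. The median of the mitochondrially encoded subunits was then -0.81 to -0.57. Pathway genes called lower numbered 7 after thinning (11 as reported). The median of the respiratory regulators turned to 0.0029 with exon length correction and block, 0.068 with canonical length correction and 0.079 with its block. NDUFC1 turned to 0.025 with GC correction and 0.0048 with its block. When 1 library was left out NDUFC1 ranged from -0.13 to 0.016, NDUFC2 from -0.25 to 0.037 and NDUFA11 from -0.14 to 0.56. The causes were not tested.

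Same-numbered libraries deviated together with r of 0.11, -0.06 and 0.14, and not every library correlated best with its own number. The main test therefore did not treat them as pairs. The variation between replicates estimated by edgeR (biological coefficient of variation) was 0.083 in the main fit and lower, at 0.074, with the replicate block. With the replicate block 29 subunit genes were higher, 1 lower and 3 members past 1e-05. Depth limits the members with under 10 CPM, and 3 libraries per group limit the spread estimate.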
